A study of Mus musculus with 4 samples.

Results

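Long single-block 3′ UTR peaks are called regions of N6-methyladenosine (m6A) enrichment that were annotated to a 3′ untranslated region, lay in 1 uninterrupted block of the genome and were longer than 300 bases. They were chosen by annotation, number of blocks and block length alone. The WT list held 2873 of them among 16709 peaks (17.2%, 95% binomial interval 16.6 to 17.8), in 2527 assigned genes. The KO list held 4054 among 21031 peaks (19.3%, 18.7 to 19.8), in 3433 assigned genes. Together they made 6927 of 37740 peaks. Single-block 3′ UTR peaks of up to 300 bases numbered 3552 in WT and 5705 in KO, and 3′ UTR peaks that spanned a splice junction numbered 3536 and 3718.

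The cells were C57BL/6 mouse macrophages, grown from bone marrow with macrophage colony-stimulating factor for 7 days. Both groups carried floxed Mettl3 alleles (Mettl3 fl/fl). The WT cells had no Cre named, and the KO cells also carried Cre recombinase (LyzM-cre) expressed from the lysozyme M locus, which is active in myeloid cells and can leave some cells unrecombined. For each genotype, poly(A) RNA was fragmented and sequenced after precipitation with an m6A antibody (IP) and without it (input). Each of the 4 libraries stood alone in its group, so differences have no replicate check. Binomial intervals given with shares cover the counting error alone and treat peaks as independent. Mettl3 had no long single-block 3′ UTR peak in either list, and its only peak, in the KO list, covered 240 bases in 2 blocks at 1.35-fold. No input level of Mettl3 was analysed here, and the deletion could not be checked on its transcript.

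METTL3 is the catalytic subunit of the complex that writes m6A into messenger RNA. The mark is known to gather near stop codons and in 3′ UTRs, mostly within a short consensus that contains GGAC, and YTH-domain proteins that read it there influence how fast the messenger decays and how well it is translated. An antibody peak is much wider than a modified base, so a long peak can hold several marked positions, and its borders depend on fragment size and on the peak caller.

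To show what lies inside such peaks, the letters of known RNA elements were taken from RefSeq (GRCm38.p6, the assembly of build mm10). Of 1005 microRNA hairpins in that table, 8 lay wholly inside a long single-block 3′ UTR peak, and the 11 mature microRNAs cut from them had 11 different seeds. Mir671 (strand +, in Chpf2), Mir8115 (strand +, in P2rx7) and Mir678 (strand -, in Prmt2) lay inside such a peak in both lists. Their mature sequences follow, 5′ to 3′, with the seed (bases 2 to 8) in capitals, and the last line shows, in capitals, 1 of the 2 GGACU inside the Mir678 hairpin.
mmu-miR-671-5p, chr5:24592132-24592154: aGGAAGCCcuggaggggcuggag
mmu-miR-671-3p, chr5:24592171-24592191: uCCGGUUCucagggcuccacc
mmu-miR-8115, chr5:122682664-122682685: cCGCAAUAgcaacaagggcucu
mmu-miR-678, chr10:76207333-76207354: gUCUCGGUgcaaggacuggagg
Mir678 hairpin site, chr10:76207327-76207354: gucucggugcaaGGACUggagguggcag
Mir678 was the only one of the 8 hairpins with GGACU, which 8.16% of all hairpins in the table hold. The peaks around Mir671 ran for 1827 bases at 11.7-fold over input in WT and 1375 bases at 8.75-fold in KO. Those around Mir8115, in the UTR of the ATP-gated channel P2rx7, ran for 1950 bases at 6.14-fold and 1980 bases at 5.24-fold. Those around Mir678, in the arginine methyltransferase Prmt2, ran for 330 bases at 2.95-fold and 360 bases at 2.22-fold. Each fold is the authors' own value for a peak and is used here only to describe or rank peaks within a list.

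A further set of sequences shows GGACT where a long peak ran over the RefSeq start of its gene, the only stretches besides hairpins whose letters were at hand. Of the 34 windows of 300 bases around RefSeq starts that lay wholly inside a peak, 12 held GGACT on the strand of the assigned gene (35.3%, 19.7 to 53.5) and 13 on the other strand, beside 26.1% of all 32817 windows on the strand of their own gene. The printed examples lie in peaks that overlap their assigned gene and that no RefSeq gene overlaps on the opposite strand, so 1 annotated strand applies. They run 5′ to 3′ on the strand of the gene, with GGACT in capitals.
Exosc6, strand +, chr8:111056166-111056194: atccgttccttaGGACTagctaaagtacc
Zfp708, strand -, chr13:67098157-67098185: gagatgtcgaaaGGACTtttaaaggttct
Chml, strand -, chr1:175688478-175688506: gttaaaagcttaGGACTtaaaaactcagt
These sites lie 145, 181 and 125 bases before the RefSeq start, inside peaks that the deposited annotation assigns to the 3′ UTR. They are thus upstream of that start, and whether they are transcribed was not tested. The WT peak on Exosc6, a subunit of the RNA exosome, had a fold of 42.9. The peaks on the zinc-finger gene Zfp708 had folds of 21.4 in WT and 3.15 in KO and also overlap Rslcan18. The KO peak on Chml, a Rab escort protein, had a fold of 10.6 and also overlaps Opn3. Overlap with a letter pattern does not show which base was modified.

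Long single-block peaks stood between the short and the spliced 3′ UTR peaks in enrichment. Their median fold was 5.01 in WT (quartiles 2.72 and 9.18) and 4.25 in KO (2.55 and 8.27). Short single-block peaks had medians of 1.99 and 2.15, and spliced ones 7.14 and 4.72. A peak p of 1e-10 or less was reached by 1221 of the WT peaks (42.5%), beside 30.8% of the whole WT list, and by 1437 of the KO peaks (35.4%), beside 24.5% of the whole KO list. The median length was 601 bases in WT (quartiles 419 and 1048) and 510 in KO (361 and 869), with a longest peak of 5367 and 5596 bases. Longer peaks had higher folds within each list: in WT the median went from 2.86 at 301 to 400 bases to 14.2 above 2000 bases, and in KO from 2.80 to 10.6. A peak can only be long where enrichment is called along its whole length, so these are descriptions of 1 call and not separate facts.

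The length limit fell in a dense stretch of the length distribution. At 301 to 310 bases there were 83 WT peaks with a median fold of 2.42 and 184 KO peaks with 2.58, and at 291 to 300 bases 202 WT peaks with 2.49 and 402 KO peaks with 2.44. The WT peaks of 301 bases included those of Ago1, an Argonaute protein of microRNA silencing (2.22-fold), Aldh2, a mitochondrial aldehyde dehydrogenase (4.66-fold), and the chromatin factor Arid4b (2.16-fold), with B3gnt7 at 3.06 and Ccdc166 at 3.40. Just outside, WT peaks of 300 bases lay on Akr7a5 (4.18-fold), Ap1b1 (2.55), Ap4b1 (1.82), Apba1 (2.48) and Aprt, an enzyme of adenine salvage (1.38). KO peaks of 301 bases lay on Abcc3 (1.99), Acbd5 (1.89), Afmid (3.31), Agtpbp1 (7.08) and Ankrd13b (2.95), and KO peaks of 300 bases on Aatk (2.83), Abhd5 (2.30), Actn1 (1.57), Adam17, the protease that sheds tumour necrosis factor (1.28), and Amigo1 (7.67). Folds just above and just below the limit overlapped in both lists.

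Among the 10 most enriched WT peaks were 6 that covered most of their gene, from start to end in some. The highest fold, 359, was on Hexim1, an inhibitor of the elongation factor P-TEFb, along 2330 bases (chr11:103116230-103118560), 65.7% of the RefSeq gene. The histone H3 gene H3c14 followed at 166-fold, with 100% of the gene covered. Cebpd, a transcription factor of myeloid cells, stood at 142-fold with 83.5% covered, the mitochondrial methionyl-tRNA synthetase Mars2 at 139-fold with 71.8%, and the POU factor Pou3f1 at 131-fold with 82.2%. Next came Izumo4 (108-fold), a peak assigned to Gas2 (99.0-fold) that also overlaps the DNA repair gene Fancf, Ccr7, the chemokine receptor of migrating dendritic cells (98.0-fold), Ier5l (95.6-fold, 100% covered) and the G protein-coupled receptor Gpr35 (81.6-fold). The peaks on Izumo4, Gas2, Ccr7 and Gpr35 covered 28.3% of the gene or less. On these genes the KO list held peaks too, among them Hexim1 at 92.8-fold over 2360 bases, Cebpd at 25.2-fold over 1948 bases, Mars2 at 85.4-fold, Ccr7 at 49.6-fold and Ier5l at 71.0-fold. All 10 of these WT peaks shared at least 1 base with a KO peak, which for H3c14 was a 5′ UTR peak of 897 bases at 11-fold.

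In the KO list the highest fold, 1220, was on the ribosomal protein gene Rpl7a, over 683 bases, with no WT peak at the place. Ribosomal protein genes have many near-identical copies in the genome, so reads could have been shared among them and the value is uncertain. Lipe, the hormone-sensitive lipase, followed at 116-fold and the retrotransposon-derived gene Rtl8a at 99.2-fold. Hexim1, Ccdc85b (91.7-fold), Mars2, Ier5l, the galactosyltransferase B3galt4 (63.8-fold), the methyl-lysine reader Phf20l1 (62.6-fold) and Jun (58.4-fold) completed the 10. Hexim1, Mars2 and Ier5l stood among the 10 highest in both lists. Apart from Rpl7a, each of these KO peaks shared bases with a WT peak.

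The longest peaks were of mixed strength. In WT they lay on the chromatin regulator Ankrd11 (5367 bases, 8.12-fold), the casein kinase Csnk1g1 (5307 bases, 25.0-fold), the splicing factor gene Zrsr1 (4492 bases, 31.5-fold), Maf, a transcription factor of resident macrophages (4080 bases, 16.2-fold), and Strbp (4018 bases, 8.16-fold). The Strbp peak had no KO counterpart and a false discovery rate above 0.05. In KO they lay on Ndnf (5596 bases, 26-fold), Clec14a (4571 bases, 9.45-fold), the Wnt receptor Fzd8 (4391 bases, 14.2-fold), Zfp473 (4135 bases, 7.08-fold) and Zfp865 (3923 bases, 20.4-fold). Clec14a and Zfp473, with no WT counterpart, also had a false discovery rate above 0.05. Some genes held several separate long peaks, up to 4 on Rgs1, a regulator of G-protein signalling, and on Stard9 in WT, and 5 on Stard9 in KO. Whether those of a gene lie along 1 UTR was not tested.

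Long peaks were placed within their genes in a broad range. Of those whose assigned gene was found in RefSeq, 76.0% in WT and 75.4% in KO overlapped that gene. Among these overlapping peaks the median distance from the peak centre to the 3′ end of the gene was 1138 bases in WT and 860 in KO, against 241 and 165 for short single-block peaks. A centre within 1000 bases of the gene end was found for 46.1% in WT and 53.3% in KO. In WT 129 peaks (6.39% of those overlapping their gene) covered at least 50% of the whole gene, with a median fold of 13.1, against 4.76 for the 1891 that covered less. In KO 136 peaks (4.81%) did so, with 9.45 against 4.02. On Jun, H3c14 and Ier5l the WT peak covered the gene whole, coding sequence included, although its annotation is 3′ UTR.

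The comparison of the genotypes first asked whether a long 3′ UTR peak of 1 list was found again in the other. A KO peak shared 1 base or more with 2479 WT peaks (86.3%, 85.0 to 87.5), beside 73.4% of all WT peaks. Of the KO peaks 3045 (75.1%, 73.7 to 76.4) shared a base with a WT peak, beside 61.6% of all KO peaks. The share was lower for short single-block peaks, at 67.0% and 40.3%, and higher for spliced 3′ UTR peaks, at 89.3% and 77.5%. It climbed with length, from 74.9% at 301 to 400 bases to 95.8% above 2000 bases in WT, and from 61.8% to 87.0% in KO. A longer region also has more bases on which to meet another. Where 50% of both peaks had to be shared, the figures were 66.8% and 53.9%. Of peaks with a p of 1e-10 or less, 99.5% in WT and 96.9% in KO were found in the other list.

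Sharing also went with place in KO. Long KO peaks centred within 500 bases of the gene end were found in WT in 69.4% of cases (66.6 to 72.1, 1106 peaks), and those 1000 to 2000 bases away in 85.8% (82.4 to 88.8, 486 peaks). In WT the corresponding shares were 88.1% (628 peaks) and 85.9% (412 peaks), with overlapping intervals. The 646 KO peaks with no WT counterpart had their centre a median of 433 bases from the gene end, against 1028 for the 2184 with one. The 245 WT peaks with no KO counterpart had a median of 1275 bases, against 1108. The KO peaks without a counterpart were also shorter, with a median of 417 bases against 571, and whether length alone accounts for their place was not tested.

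**Figure D1:**
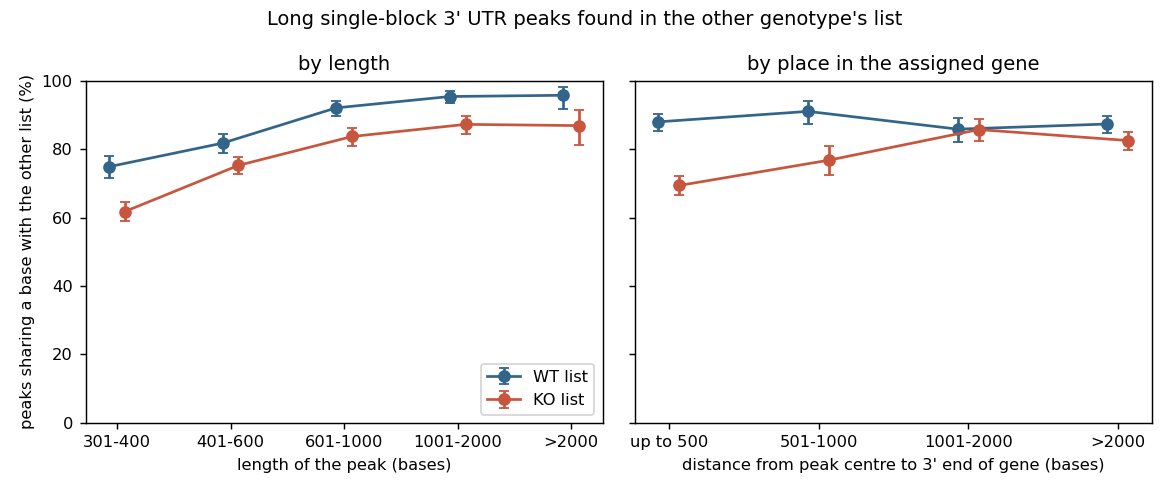
Share of long single-block 3′ UTR peaks that share at least 1 base with a peak of the other list, by peak length in bases (left) and by distance in bases from the peak centre to the 3′ end of the assigned gene (right). Points are shares in percent for the WT list (blue) and the KO list (red) and bars are exact 95% binomial intervals. Both lists climb with length, and by place the KO list is lowest, at 69.4%, within 500 bases of the gene end.

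A run of repeated fold values lay beside the peaks that were not found again. In WT 147 long peaks had a fold of exactly 7.14 and 100 a fold of 8.16, and in KO 241 had 7.08 and 207 had 8.27. Of the WT peaks, 661 (23.0%) had a fold equal, at 3 significant digits, to a whole multiple from 3 to 12 of 1.02, and of these 67.2% shared a base with a KO peak, against 92.0% of the other 2212. In KO 750 peaks (18.5%) fell on such multiples of 1.181, and 56.9% of them were found in WT, against 79.2% of the other 3304. Both steps were chosen as those that matched most of these same peaks in each list. How many peaks would match such a step by chance was not computed. The false discovery rate was under 0.05 for 53.6% of the WT peaks on these steps and 94.3% of the rest, and for 51.9% and 86.2% in KO. Zfp473 at 7.08 and Strbp at 8.16 are examples of long peaks on these steps without a counterpart. Peaks on these steps were thus found again less often than other peaks of their list, by shares whose intervals (63.4 to 70.7 and 90.8 to 93.1 in WT, 53.3 to 60.5 and 77.8 to 80.6 in KO) do not overlap. Whether their weaker false discovery rates account for this was not tested.

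Peaks that met a counterpart did not always meet one of the same kind. Of the WT peaks, 1785 (62.1%) met a long single-block 3′ UTR peak in KO, while 363 met a short and 265 a spliced 3′ UTR peak, and 632 (22.0%) met more than 1 KO peak. The KO peaks met a long one in 1821 cases (44.9%), a short one in 519, a spliced one in 647 and none in 1009. The Csnk1g1 peak of 5307 bases in WT, for example, met 2 KO peaks, the best of them 1020 bases long, and the Ankrd11 peak met 3. By assigned gene, 1796 genes had a long single-block peak in both lists, which is 71.1% of the WT genes and 52.3% of the KO genes. Another 731 genes had one in WT alone, of which 123 had no KO peak of any kind, and 1637 in KO alone, of which 485 had no WT peak of any kind. The whole lists differed in the same direction, with peaks in 9875 assigned genes in WT and 11675 in KO. Matching gene shares over all peaks were not computed, so these gene counts were not read as particular to long peaks.

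Where each peak was the best match of the other, 1673 pairs of long peaks were formed. The KO peak was shorter in 945 pairs (56.5%, 54.1 to 58.9), longer in 557 (33.3%, 31.0 to 35.6) and of equal length in 171. The median length was 721 bases in WT and 659 in KO, and the median difference was -30 bases. A KO peak lay wholly within a longer WT peak in 707 pairs, and the reverse held in 364. The immediate early genes Jun (3189 bases) and Junb (1809 bases) had the same start and end in both lists, as had 127 pairs in all. Pan3, a subunit of a deadenylase, had 1889 bases in WT and separate peaks of 990 and 750 bases in KO, of which the one of 990 bases formed the pair.

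**Figure D2:**
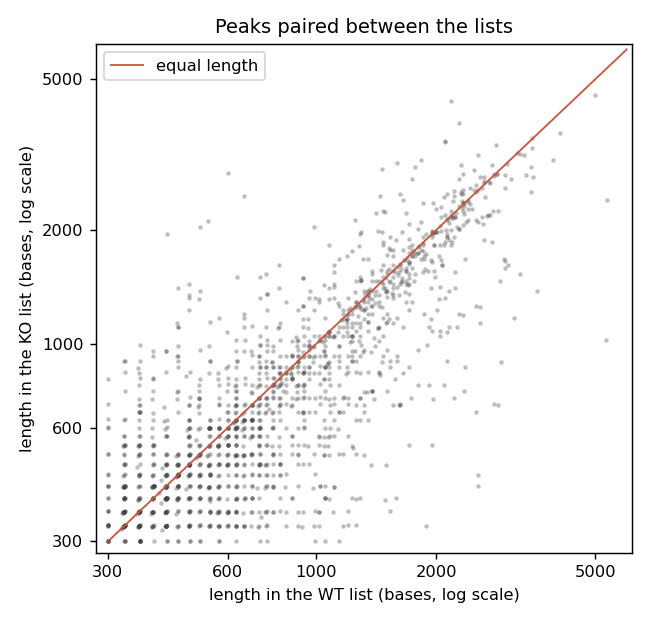
Length of each of the 1673 paired long single-block 3′ UTR peaks in the WT list (horizontal) and the KO list (vertical), in bases on log scales, 1 point per pair. The red line marks equal length, and more points lie below it (945) than above it (557).

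The next comparison used the authors' deposited table of differential peaks, which gives a log2 ratio of m6A enrichment in KO over WT and lists only peaks with a p under 0.05 for that difference. Listed differential peaks overlapped 1094 WT peaks (38.1%), beside 32.2% of the whole WT list, and 1591 KO peaks (39.2%), beside 29.3% of the whole KO list, by the authors' deposited table. On long single-block 3′ UTR peaks of either list lay 1994 differential peaks of the authors' deposited table, and 1380 of them (69.2%, 67.1 to 71.2) were lower in KO, beside 69.6% of the whole table. A false discovery rate under 0.05 was reached by 1103 lower peaks (55.3%), beside 57.0% of the whole authors' deposited table, and by 444 higher ones (22.3%), beside 22.6%. Their median log2 ratio was -0.38, against -0.40 for the whole of the authors' deposited table. Set against that median of the authors' deposited table instead of 0, 48.3% of them were lower. The share on long single-block 3′ UTR peaks thus did not stand apart from that of the authors' deposited table as a whole.

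That share concealed a steep gradient with length. Of differential peaks on long peaks of 301 to 400 bases, 31.1% (26.6 to 35.9) were lower in KO according to the authors' deposited table, of those on peaks above 1000 and up to 2000 bases 93.3% (90.7 to 95.3), and of those on still longer ones 93.5%. Long peaks of 301 to 400 bases numbered 678 in WT and 1307 in KO, and those above 2000 bases 192 and 184. A peak called in KO alone is higher there by selection, and list and length were not separated in these shares. Sorted by their own length and class, the 1250 long single-block 3′ UTR peaks of the authors' deposited table were lower in 85.0% (82.9 to 86.9), the 1501 short ones in 16.9% (15.0 to 18.8) and the 1631 spliced ones in 89.2%. From 11.4% lower at up to 150 bases the share went to 19.4% at 151 to 300, 67.2% at 301 to 600, 95.2% at 601 to 1000 and 98.3% above 1000 bases per the authors' deposited table. Among genes with the highest input levels (the upper of 5 equal classes, from 21.5 FPKM), 72.0% of long and 5.45% of short peaks were lower by the authors' deposited table. Among the fifth with the weakest peak p, the figures were 65.7% and 21.4% according to the authors' deposited table. Long peaks were thus lower more often than short ones among the most abundant transcripts and among the weakest peaks alike.

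Place went with direction as well. Among long single-block 3′ UTR peaks of the authors' deposited table, 62.2% (55.5 to 68.6, 225 peaks) were lower when centred within 500 bases of the gene end, 92.2% at 500 to 1000 bases and 93.7% (90.6 to 96.1, 335 peaks) beyond 2000. Among the short ones, 5.95% (4.35 to 7.90, 740 peaks) were lower within 500 bases of the gene end and 57.0% (47.7 to 66.0, 121 peaks) beyond 2000 bases per the authors' deposited table. The difference by place was concentrated in peaks of 301 to 600 bases, of which 42.4% were lower near the gene end and 84.1% farther away by the authors' deposited table. Above 600 bases, 94.2% near the end and 97.3% farther away were lower according to the authors' deposited table. Median input levels also differed, at 11.5 FPKM for the peaks of 301 to 600 bases near the gene end and 4.06 for those farther away.

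**Figure D3:**
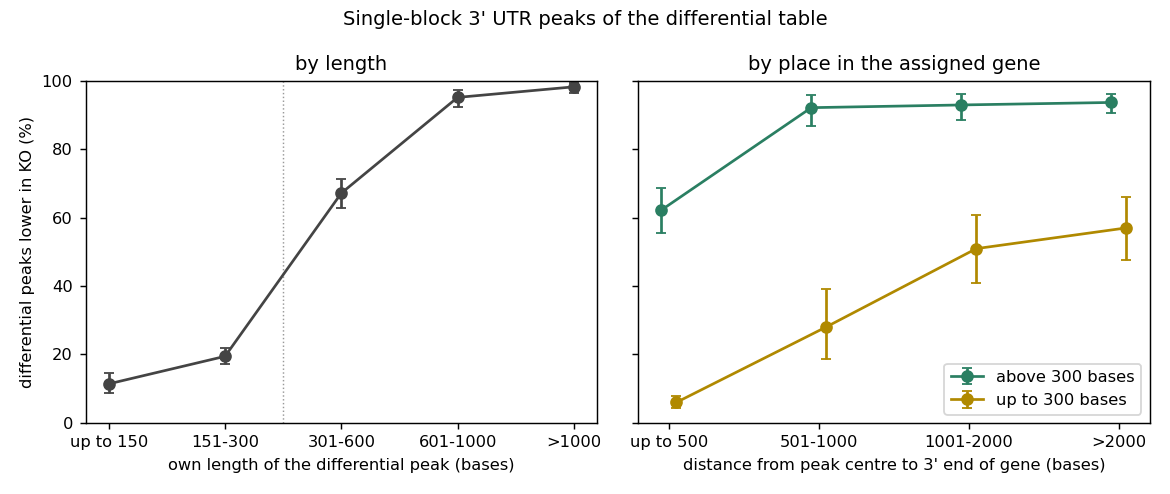
Share of single-block 3′ UTR peaks of the authors' deposited table that were lower in KO, by their own length in bases (left, with the limit of 300 bases dotted) and by distance in bases from peak centre to gene end (right, for peaks above and up to 300 bases). Points are percent and bars exact 95% binomial intervals; the share goes from 11.4% to 98.3% with length, and short peaks within 500 bases of the gene end are lowest at 5.95%.

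Which list held the long peak also went with direction. On WT peaks 85.1% of differential peaks were lower per the authors' deposited table, on KO peaks 65.9%, on places with a long peak in both lists 84.0% (931 peaks), and on those with one in KO alone 44.0% (771 peaks). A peak called in 1 list is higher there by selection, so the split by list was not read as a result. Within 1 gene, 39 genes had both a long and a short single-block 3′ UTR differential peak on the peaks described here, and the long one was lower in KO with the short one higher in 16, the reverse in 2 and neither in the rest, by the authors' deposited table. The ratio of the long peak was below that of the short one in 22 of the 39 (56.4%, 39.6 to 72.2). Maf had a long peak at -0.26 (3600 bases) and short ones at 0.38 (151 bases) and -0.24 (271 bases), and Kmt2e, a chromatin protein, a long peak at -0.48 and a short one at 1.21 that overlaps the neighbouring gene Srpk2, per the authors' deposited table. Each of these 5 values had a false discovery rate under 0.05 by the authors' deposited table.

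Several of the most enriched or longest peaks had a listed difference. Hexim1 stood at -0.43 over 2241 bases, Cebpd at -0.47, Mars2 at -0.53 and B3galt4 at -1.33, all with a false discovery rate under 0.05, per the authors' deposited table. Input levels of Mars2 were low, at 0.55 FPKM in WT and 0.50 in KO. Of the longest peaks, Ankrd11 stood at -0.42 over 5097 bases, Zfp865 at -0.24 over 4163 bases, and Csnk1g1 at -1.62 and -0.57 on separate stretches of 361 and 1020 bases, per the authors' deposited table. P2rx7, whose UTR holds Mir8115, stood at -0.62 over 1920 bases with inputs of 15.0 and 17.1 FPKM, per the authors' deposited table. The chromatin reader Phf20l1 stood at 1.54 with a false discovery rate above 0.05, at a place just past its RefSeq gene, per the authors' deposited table.

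The lowest log2 ratios on long peaks, in genes whose inputs both reached 1 FPKM, were -4.94 for H3c14, -2.81 for the mitochondrial ribosomal protein Mrps33 and for Pradc1, -2.75 for Izumo4, -2.50 for the translation factor Eif2d and -2.40 for Nob1, a nuclease of ribosome maturation, according to the authors' deposited table. Nupl2 (-2.28), Fchsd2 (-2.08), the casein kinase Csnk1a1 (-2.03) and Swsap1 (-2) followed per the authors' deposited table. Of these 10 lowest only the peaks of Eif2d and Nob1 were themselves long single-block 3′ UTR peaks. Those of H3c14 and Pradc1 were annotated to a 5′ UTR, those of Izumo4 and Swsap1 to an exon, those of Mrps33, Nupl2 and Fchsd2 were short and that of Csnk1a1 spliced, and each overlapped a long one. For Izumo4, Nupl2 and Swsap1 the false discovery rate was above 0.05 by the authors' deposited table. On the other side, the highest ratios were 5.70 for Rpl7a, with the doubt on copies stated above, 3.08 for Banp, 2.32 for Aph1a, a subunit of gamma-secretase, 2.31 for the translation factor Eif3j1 and for Rsrc2, and 2.14 for Nhlrc1 according to the authors' deposited table. The early endosome GTPase Rab5a (2.12), Idi1 of sterol synthesis (2.10), Ehd1 (2.04) and Mtx2 (1.80) completed the 10 per the authors' deposited table, where Banp, Nhlrc1, Rab5a and Ehd1 had a false discovery rate above 0.05. Input levels of Aph1a were 30.6 FPKM in WT and 31.3 in KO, and those of Nob1 3.58 and 3.88.

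Toll-like receptor signalling genes, which sense microbial products, were held by long single-block peaks in 10 of 26 listed genes. All 10 of their differential peaks, in 7 genes, were lower in KO, 9 of them with a false discovery rate under 0.05 and 5 below the table median, with a median of -0.39 beside -0.40 for all peaks of the authors' deposited table. By class 7 of the 10 were themselves long 3′ UTR peaks and 3 were exon peaks. For this and the lists that follow, the background is that 69.6% of the whole of the authors' deposited table was lower, 57.0% with a false discovery rate under 0.05, and that 85.0% of its long 3′ UTR peaks were lower. Of all assigned genes with a peak, 2527 of 9875 had a long one in WT and 3433 of 11675 in KO. Any WT peak was held by 20 of the 26 genes here. Counts of listed genes with a long peak were not read as a result. Tlr4, the receptor for bacterial lipopolysaccharide, had a peak of 3466 bases at 39.4-fold in WT (chr4:66839231-66842697) and of 3286 bases at 21.8-fold in KO, with a log2 ratio of -0.64 by the authors' deposited table. Tlr3, which binds double-stranded RNA, stood at -0.58, Tlr2, the lipoprotein receptor, at -0.45, Tlr8 at -0.33, the coreceptor Cd14 at -0.26 and Tlr7, a sensor of single-stranded RNA, at -0.25 and -0.18 (an exon peak of 1192 bases) according to the authors' deposited table. The adaptor Ticam1 had 3 lower peaks between -0.22 and -0.83 per the authors' deposited table, with the WT peak spanning 2753 bases and the KO peak 1855. Input levels were 17.1 FPKM in WT and 22.9 in KO for Tlr4, 21.9 and 34.2 for Tlr2, and 153 and 198 for Cd14. The DNA sensor Tlr9 had a WT peak of 3238 bases at 8.63-fold, and Tlr1 had peaks of 658 and 628 bases, neither with a listed differential peak.

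Brakes on this signalling gave 3 lower peaks and none higher by the authors' deposited table, on Irak3 (-0.68 and -1.13), a kinase-like inhibitor of the receptor complex, and on the phosphatase Dusp1 (-0.35). Beside the 69.6% lower in the whole of the authors' deposited table, nothing was read from 3 peaks. Socs3, a suppressor of cytokine signalling, had long peaks in both lists (806 bases at 9.18-fold and 1402 bases at 5.98-fold) without a listed difference. Of NF-kB, IRF and STAT factors, Irf8 (-0.43) and Stat6 (-0.42) were lower and a short peak of Stat3 stood at 0.73 with a false discovery rate above 0.05 according to the authors' deposited table. Irf8, which directs monocyte and macrophage fate, had peaks of 778 bases at 3.21-fold in WT and 628 bases at 2.37-fold in KO. Of 21 cytokine and chemokine genes, 7 had any WT peak and 1, Csf1, had a long one, in KO.

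Immediate early and myeloid transcription factors had long single-block peaks in 17 of 29 listed genes, and 28 of the 29 had any WT peak. Of their 18 differential peaks 16 were lower and 2, both short and one of them on Maf, higher, all with a false discovery rate under 0.05, beside 69.6% lower in the whole of the authors' deposited table and 85.0% among its long 3′ UTR peaks. The values were small, with a median of -0.32 and 2 of 18 below the median of the authors' deposited table. Jund stood at -0.42, Junb at -0.36, Cebpa, a driver of the myeloid lineage, at -0.34, Ier5 at -0.31, Egr2 at -0.28 and Jun at -0.16 by the authors' deposited table. Jun had 73.2-fold enrichment in WT and 58.4-fold in KO along the whole gene, Cebpa 12-fold and 9.60-fold over 76.1% and 75% of it, and Cebpb an 11.3-fold peak over 99.1% of it in WT. Input levels of Jun were 57.3 and 59.7 FPKM and those of Jund 57.8 and 57.6.

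Proteins of mRNA decay and 3′ UTR binding gave 6 lower peaks, 5 of them with a false discovery rate under 0.05, and 1 higher, with a median of -0.72, beside 69.6% lower in the whole of the authors' deposited table. Tnrc6a, a scaffold of microRNA silencing, had a WT peak of 2877 bases at 17.6-fold and a ratio of -0.90, its relative Tnrc6b -0.74 and -0.59, Pan3 -0.72, and the antiproliferative factor Btg1 0.42 according to the authors' deposited table. The Tnrc6b peak at -0.59 lies in Fam83f and not in its assigned gene. A short peak assigned to Zfp36l2 (-1.3, with a false discovery rate above 0.05) also lies outside that gene, over Gm36279 and Thada. The counts and the median include both. In the m6A machinery, Rbm15b, which guides the writer, had peaks of 3465 bases at 33.4-fold and 3495 bases at 21.8-fold and a ratio of -0.32 per the authors' deposited table. The writer partner Cbll1 had 1077 bases at 6.83-fold and 838 bases at 4.31-fold with -0.60, and the nuclear reader Ythdc1 a KO peak of 1498 bases with -1.18, by the authors' deposited table. Mettl16 in WT (301 bases, 1.93-fold) and Prrc2a in KO (360 bases, 10.6-fold) had long peaks with neither a counterpart nor a listed difference.

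Chromatin modifiers had 8 lower and 3 higher peaks, all with a false discovery rate under 0.05 and with a median of -0.44, a share lower near the 69.6% of the whole of the authors' deposited table. Those assigned to Dnmt1 (0.46) and Setd1a (-0.31) lie in S1pr2 and Orai3, by position, according to the authors' deposited table. The histone acetyltransferases Crebbp (-0.54) and Ep300 (-0.44), the deacetylase Hdac4 (-1.07) and the demethylase Kdm2a (-0.89) were lower, and a short peak on Hdac5 (1.62) higher, per the authors' deposited table. Input levels of Hdac4 were low, at 0.93 FPKM in WT and 0.90 in KO. Crebbp carried 29.1-fold over 2727 bases in WT and 21.4-fold over 2667 bases in KO, and the DNA demethylase Tet2 15.8-fold over 1979 and 12.6-fold over 1978 bases. Genes of phagocytosis and the lysosome gave 4 lower (3 with a false discovery rate under 0.05) and 1 higher, with the protease Ctsb at -0.28, and genes of cholesterol and lipid handling 3 lower and 2 higher by the authors' deposited table. The 2 higher ones were short peaks on Apoe (0.39) and the fatty-acid binding protein Fabp4 (0.56), and the lower ones lay on Abcg1, a cholesterol exporter (-0.22), and Acaca of fatty acid synthesis (-0.65, and -0.45 with a false discovery rate above 0.05), per the authors' deposited table. For mTOR and stress signalling Atf4, a stress transcription factor, stood at 0.90, Tsc2, a brake on mTOR whose peak overlaps Pkd1, at 0.86 and Ulk1, with a false discovery rate above 0.05, at -0.46, per the authors' deposited table. Every one of the higher peaks in these gene lists was itself a short single-block 3′ UTR peak of the authors' deposited table. Interferon-stimulated genes had long peaks in 7 of 20 genes and 1 listed difference, Ifit3 at -0.34, according to the authors' deposited table.

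**Figure D4:**
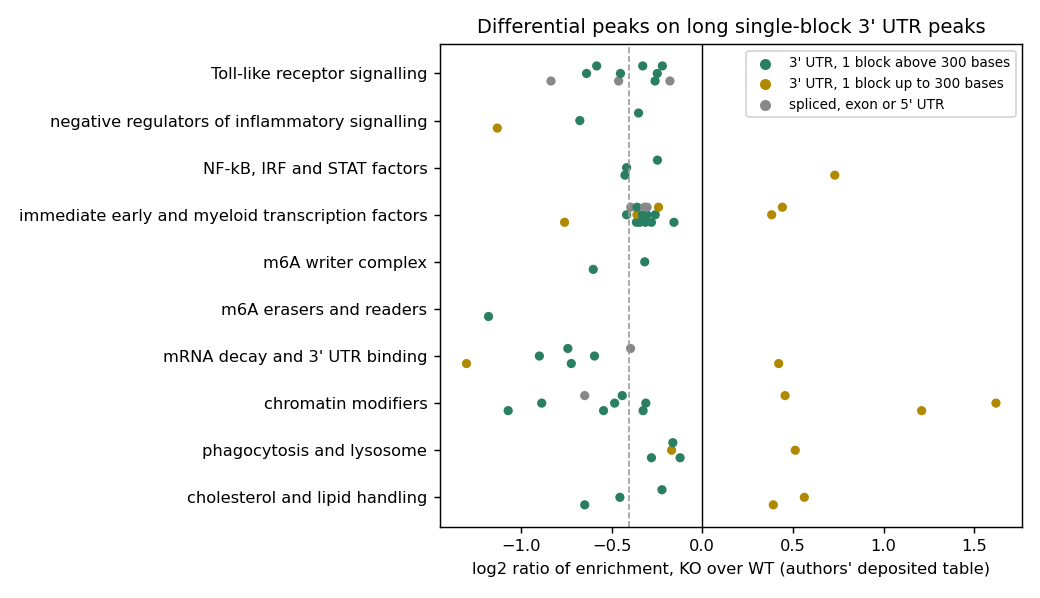
Log2 ratio of enrichment, KO over WT, from the authors' deposited table, for each differential peak on a long single-block 3′ UTR peak in 10 gene lists, 1 point per differential peak, coloured by the class of the differential peak itself. The dashed line marks the table median of -0.40; all 10 Toll-like receptor points lie below 0, and the points above 0 are short peaks.

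Input levels were listed only for genes of the differential peaks, so all listed genes are a set chosen by a listed peak difference. Among them, input RNA of the genes with long single-block 3′ UTR peaks differed little between the genotypes. Over the 1641 such genes with a listed level and a mean of at least 1 FPKM, the median difference of log2(FPKM + 1) in KO minus WT was 0.07, as for all 3679 listed genes, on a scale that understates changes of low genes. No gene with a long peak was higher in KO by 1 or more on that scale, beside 0.299% of all listed genes, and 2 predicted genes, Gm49322 and Gm49450, named here after their values were seen, were lower by as much, beside 0.245%. The median was 0.094 over 867 genes that had only lower differential peaks on their long peaks and 0.0048 over 409 that had only higher ones, per the authors' deposited table. The largest increases were those of the centrosomal gene Sfi1, from 8.49 to 17 FPKM, B4gat1, from 3.87 to 7.53, the exonuclease Trex1, from 11.8 to 20.3, Ifit3, from 7.35 to 12.4, and Scamp4, from 6.81 to 11.5. The largest decreases were those of Ppia, from 175 to 100.2, the complement component C1qb, from 545 to 326, Phospho1, from 7.26 to 4.33, the integrin Itgax, from 71.9 to 46.7, and Gprc5b, from 18 to 11.5. Enrichment is taken over input, so genes chosen for a change of input can show the opposite change of enrichment by construction. In most of these genes input and enrichment went opposite ways, per the authors' deposited table. The share over all listed genes was not computed, so this was not read as a result. The same limit applies to the medians of 0.094 and 0.0048. With input higher in KO, B4gat1 (-0.46), Trex1 (-0.17), Ifit3 (-0.34) and Scamp4 (-0.62) had lower peaks. With input lower, C1qb (0.36) had a higher long peak, and Ppia (1.26) and Itgax (0.25) higher short ones. Sfi1 (0.55), Phospho1 (-0.13) and Gprc5b (-0.21) went the same way in both. The false discovery rate of the peak difference was above 0.05 for Trex1, Phospho1 and Gprc5b. The authors' adjusted p of the input difference was under 0.05 for none of the genes with the largest changes, and with 1 input per genotype the differences were not tested here. The macrophage markers Cd14, Adgre1, Cd68, Fcgr1, Lyz2 and Spi1 were between 40.6 and 10533 FPKM in WT and between 58.4 and 6615 in KO. The neutrophil genes S100a8 and S100a9 summed to 233 FPKM in WT and 137 in KO, and no gene of the T and NK cell or erythroid lists had a listed level. A level can be missing for want of a listed differential peak, so this does not show that a transcript was absent. In bulk RNA, fewer cells of a type and less RNA per cell cannot be told apart, and the part of cell mixture in these results was not tested.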

How the data were processed

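Groups are the sample titles, with 1 library each: IP and input of WT and of KO. HISAT2, fastp, StringTie, HOMER, ChIPseeker, edgeR and build mm10 stand in the submitters' processing notes with no role; the peak caller was not given in the sources used here. Peaks were called by the authors per genotype, on 1 library pair and without pooling. Each deposited peak has a p-value (at most 0.05), a fold, which is a ratio of IP over input, and log10 values of p and of the false discovery rate, per the file headers. The deposited differential table holds, per the file headers, a log2 ratio of KO over WT with its p-value, and input levels in FPKM for the genes of its peaks. Read totals were not used, so depth is unknown here. The number of value columns that matched no sample was 0.

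Members were taken by annotation, 1 block and a size above 300 bases. Overlap needed 1 base of the blocks and ignored strand, which is known only for assigned genes. Positions are those of the lists. Of 6927 members, 6410 had an assigned gene name found in RefSeq (GRCm38.p6), whose extents were compared with the member. Distances to the gene end use members that overlap that gene. Shares have exact (Clopper-Pearson) 95% binomial intervals. Input differences used log2(FPKM + 1) and left out genes whose mean was under 1 FPKM. No test was run with 1 library per group. The overlap and share routines were tested on simulated data. Software was Python 3.11.15 with scipy 1.17.1, pandas 2.3.3, numpy 2.4.6 and, for figures, matplotlib 3.10.9.

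Named genes overlap their peak and have no predicted names: per list the 10 highest folds with p of at most 1e-10, the 5 longest, 5 on each side of the size limit and those with most separate peaks; the 10 lowest and 10 highest log2 ratios where both inputs reach 1 FPKM; the 5 largest input changes each way from a mean of 5 FPKM; and writers, erasers, readers and other listed genes. List genes beyond the 3 largest ratios, microRNAs and printed sites were chosen after their values were seen. The members and lists were chosen with earlier results of these data known. Alternatives were stricter fold, p, size and overlap limits, other centring, pseudocount and filter, and overlapping members counted once. The share of members holding GGACT, and sites in the highest-fold members, were planned and not computed, because no genome was used here. Results for a few listed genes are not reported here.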

Additional observations from a re-analysis of the deposited data

How the results depend on the processing

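No median changed sign under the alternatives that were run. Of 46 alternative values 33 moved beyond the interval of the reported value and 13 did not. The share of the list (17.2% in WT, 19.3% in KO) was 21.0% and 25.0% among peaks of at least 4-fold, 23.8% and 27.9% at a p of at most 1e-10, 13.1% and 13.1% above 400 bases, and 8.62% and 7.86% above 600 bases. The share found in the other list (86.3% and 75.1%) was 66.8% and 53.9% with a reciprocal overlap of 50%, 99.5% and 96.9% at a p of at most 1e-10, 89.8% and 81.4% above 400 bases, 94.0% and 85.5% above 600 bases, and 72.3% in KO at 4-fold or more. The median fold was 5.66 and 4.62 at the stricter p, and 6.12 and 5.50 above 400 bases. In the authors' deposited table the share of differential peaks on members that were lower in KO (69.2%) was 71.3% with a false discovery rate under 0.05, 58.4% with an absolute log2 ratio of at least 1, 48.3% against the table median, 74.4% with reciprocal overlap, 78.8% and 87.2% on members above 400 and 600 bases, 85.1% on WT members and 65.9% on KO members. The median log2 ratio in the authors' deposited table (-0.38) was -0.42 with a false discovery rate under 0.05 and -0.45 above 400 bases. The median input difference (0.075) was 0.089 with a pseudocount of 0.1 and 0.066 without a filter. The causes were not tested. Counting overlapping members once, an alternative chosen after seeing the data, was run for the share found in the other list, the median fold, the distance to the gene end, and the share lower and median ratio of the authors' deposited table, and moved none of them beyond its interval. No paired analysis was possible because each genotype has 1 library of each kind, and for the same reason none could be left out. The share of members holding GGACT was not run for want of a genome. The unknown depth limits what an absent counterpart shows, and the size limit cuts through a dense range of lengths.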

Other observations

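Further hairpins inside long single-block 3′ UTR peaks were held by 1 list each. In KO, Mir5130 lay in a peak of 2459 bases at 3.23-fold over the potassium channel tetramerisation gene Kctd12, Mir6376 in a peak of 1107 bases at 8.27-fold over the oligosaccharyltransferase subunit Rpn1, and Mir3098 in a peak of 540 bases at 15.3-fold. In WT, Mir8099-1 lay in a peak of 569 bases at 4.64-fold over Lysmd1.

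Among marker genes of other cells, 3 of 6 dendritic cell markers had a long single-block peak, with Itgax at 0.25 for a short differential peak in the authors' deposited table, of 6 osteoclast markers 1 (Nfatc1, a driver of osteoclast formation) and of 6 stromal markers 2, while none of the 8 neutrophil, 5 B cell, 6 T and NK cell or 4 erythroid markers did, of which 3, 1, 0 and 0 had any WT peak. Of 10 macrophage identity genes 3 had a long peak. Any WT peak was held by 6 of these 10, and by 3 dendritic cell, 2 osteoclast and 3 stromal markers. The counts of markers were not read as a pattern of cell types. Of 17 genes of the p53 pathway 5 had a long peak, with 1 differential peak assigned to Phlda3 (-0.38) that lies in Csrp1, in the authors' deposited table. Hnrnpa3, a splicing factor gene with 3 separate long peaks in KO, had a short differential peak at 4.64 with inputs of 0.39 and 0.66 FPKM, in the authors' deposited table.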
